A study of Rattus norvegicus with 10 samples.

Results

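The series mapped m6A (N6-methyladenosine), the most common internal modification of messenger RNA, in primary cardiomyocytes isolated from rats 1 to 3 days old. Immunoprecipitation with an antibody against m6A (m6A IP) was followed by sequencing, and places where reads piled up above a control IP with normal IgG were listed as peaks. Hypertrophic cells were kept in M199 medium with 2% bovine serum, and quiescent cells, named normal in the lists, in the same medium without serum. The labels give 10 libraries in 5 groups of 2: m6A IP libraries of hypertrophic and of quiescent cells, the input RNA of each, and an IgG IP made from hypertrophic cells only, the negative control of both lists. These are primary cultures of newborn animals, and the labels name no animal or culture behind a library.

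The regions described are 3088 sites that scored high in both conditions and whose summit heights had the ratio typical of such sites. The deposited peak lists hold 65539 peaks for hypertrophic and 68440 for quiescent cells, so the sites make up 4.71% of the hypertrophic list and 4.51% of the quiescent list. They were chosen by peak score, peak width, summit position and summit height, all values of the lists themselves. The score is the value the peak caller gave a peak against the control, and the summit height is the read pileup at the highest base of the peak. A ratio of scores is not read here as a ratio of enrichment. Each hypertrophic summit was set beside the nearest quiescent summit within 100 bp, with peaks that overlapped by at least 1 bp, both scores from 400 to under 3100 and both widths at most 2000 bp. A site was kept when the log2 ratio of hypertrophic over quiescent height lay within 0.2 of the median of all such pairs. Heights and scores chose the sites, so they are given as descriptions without a test. Each condition has 1 list, so no value has a replicate error, the read depth is unknown, and sites of 1 list are not replicates.

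m6A is placed on RNA during transcription by a methyltransferase complex in which METTL3 is the catalytic subunit and METTL14 its partner, mostly in a short adenosine-containing consensus, and it can be removed by the demethylases FTO and ALKBH5. In mammalian messenger RNA the mark is densest in long internal exons and around stop codons, and reader proteins such as the YTHDF family couple it to RNA decay and translation. Cardiomyocyte hypertrophy is growth in cell size without division, and serum is a classical way to induce it in cultured neonatal cells. A pileup of IP reads depends both on how often a site is methylated and on how much of its RNA is present, and these lists do not separate the 2. The coordinates are those of the rat build rn4. Gene names and sequences of that build were not used here, so sites are named by position.

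Of the 65539 hypertrophic peaks, 9342 met the limits on score and width, and 8108 of these (86.8%) had an overlapping quiescent peak with its summit within 100 bp. The quiescent partner scored under 400 in 1923 cases and 3100 or more in 155, and in a further 42 it was too wide. The remaining 5988 strong pairs were each mutually nearest, and no quiescent summit was used more than once. Their median log2 height ratio was 0.13, that is 1.10-fold higher pileup in the hypertrophic list. The window around that median therefore ran from 0.956-fold to 1.26-fold and held 3088 pairs, 51.6% of those set side by side. Above it lay 1564 pairs (26.1%), taller in hypertrophic cells, and below it 1336 pairs (22.3%), taller in quiescent cells. Since the window was laid around the median, the 51.6% is fixed by the rule and by how tightly the ratios cluster.

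The phrase unchanged height holds only relative to that median. Of the 3088 sites, 2612 (84.6%) had the taller summit in the hypertrophic list, 181 (5.86%) had equal heights and 295 (9.55%) had the taller summit in the quiescent list. The median summit height was 75 in the hypertrophic list, with quartiles of 47 and 112, against 67 in the quiescent list, with quartiles of 42 and 102. Heights ran from 14 to 164 in the hypertrophic and from 13 to 164 in the quiescent list, and 164 is the highest value of either list. The lowest log2 ratio inside the window, -0.0641, was shared by 3 sites, such as the one on chromosome 8 from 88500820 to 88501196, with heights of 66 in hypertrophic and 69 in quiescent cells. The nearest pair outside that edge, with -0.0651, lay on chromosome 2 from 54149475 to 54150463, with heights of 130 and 136. The highest inside, 0.3344, was shared by 5 sites, such as the one on chromosome 10 from 105101811 to 105102234, with a hypertrophic height of 87 against a quiescent one of 69. The nearest pair outside, at 0.3352, lay on chromosome 7 from 60194192 to 60194566, with a hypertrophic height of 82 against a quiescent one of 65. Pairs on either side of an edge thus differed by less than 0.01 in log2 ratio.

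**Figure D1:**
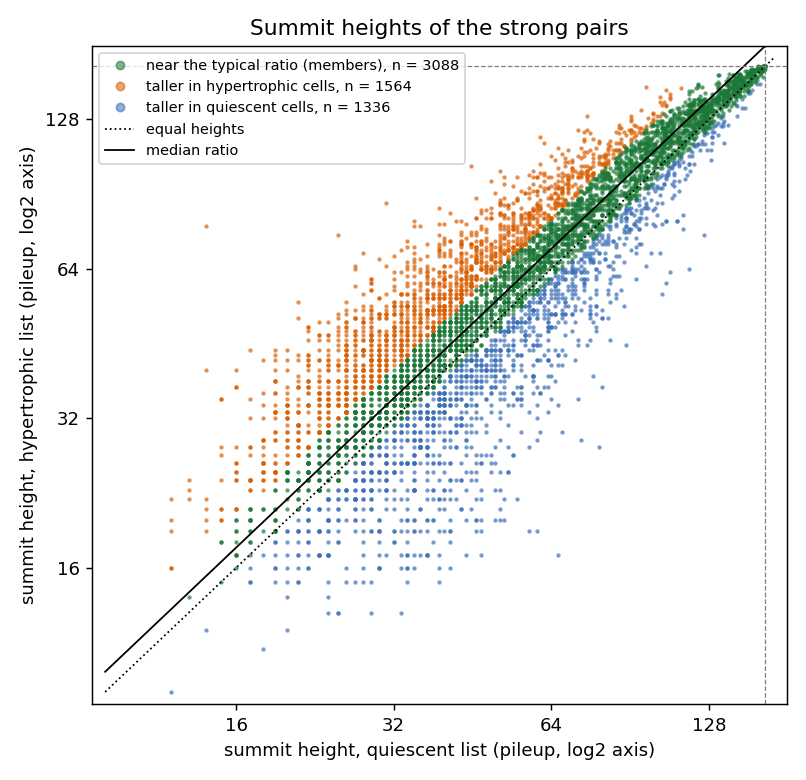
Summit height in the hypertrophic list (vertical, log2 axis) against the quiescent list (horizontal, log2 axis) for the 5988 strong pairs, 1 point a pair. The 3088 sites form a band around the median ratio of 1.10-fold (solid line), most of it above equal heights (dotted line), and the dashed lines mark the highest value of 164.

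The 10 sites with the highest smaller score lay on 8 chromosomes. Their hypertrophic heights ran from 81 to 153 and their quiescent heights from 73 to 143. The first, on chromosome 18 from 72461960 to 72462710, had a height of 87 in hypertrophic and 85 in quiescent cells, scores of 3015 and 3091, and its summit at the same base, 72462427, in both. The second, on the same chromosome from 31599627 to 31600326, had a height of 85 and a score of 3078 in the hypertrophic list, against 73 and 2977 in the quiescent list. The third, on chromosome 12 from 25194002 to 25194748, stood at 81 in hypertrophic and 83 in quiescent cells. Each of these peaks scored close to the value of 3100 at which the rule stops, and their scores rank them only within a list.

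The other 7 sites of that rank lay on 6 chromosomes. On chromosome 3, the peak from 9329510 to 9331229 was the widest of the 10, at 1720 bp in hypertrophic and 1682 bp in quiescent cells, and had a height of 153 against 143. Chromosome 7 held the site with the largest height ratio among them, from 22931125 to 22931934, with 131 in hypertrophic and 105 in quiescent cells. On chromosome 16, the site from 62669931 to 62670366 had 118 and 113 and its summit again at 1 shared base, 62670084. The remaining 4, on chromosome 8 from 53029653, chromosome 1 from 252824991 and from 82591071, and chromosome 13 from 106009127, had hypertrophic heights of 140, 117, 106 and 102 and quiescent heights of 136, 108, 100 and 104. Within the 10, the log2 height ratio ran from -0.04 to 0.32, and the summits of the lists lay 0 to 30 bp apart.

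Every chromosome listed, 1 to 20 and X, held such sites. The top site of each of the 21 chromosomes had a hypertrophic score of at least 2387 and a quiescent score of at least 2093. On chromosome X this was the peak from 122141688 to 122143603, with heights of 148 in hypertrophic and 147 in quiescent cells, and scores of 2387 and 2979. On chromosome 15 it was the peak from 32949302 to 32950878, with the lowest heights of the 21, 66 in hypertrophic and 53 in quiescent cells. On chromosome 19 it was the peak from 26145821 to 26146762, at 75 against 66. The tops of chromosomes 6, 11, 12, 13 and 14 were slightly taller in the quiescent list, and the other 16 in the hypertrophic list. The top of chromosome 10, from 35108410 to 35109278, had the widest separation of summits among the 21, at 69 bp, with a hypertrophic height of 127 against a quiescent one of 116.

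At the ends of the range, 5 sites stood at 164 in both lists. They lay on chromosome 1 from 252984921 to 252986397, chromosome 15 from 35674161 to 35675274, chromosome 17 from 15470042 to 15471301, chromosome 4 from 155355018 to 155355768 and chromosome 8 from 69808770 to 69810054. Their hypertrophic scores ran from 411 to 1014 and their quiescent scores from 833 to 1337, so the tallest sites were far from the highest scores. Since 164 is the highest value in both files, their heights can be equal because both are at a limit, and this was not tested. The lowest site, on chromosome X from 160444238 to 160445228, had heights of 14 in hypertrophic and 13 in quiescent cells. The widest, on chromosome 1 from 72587893 to 72589872, spanned 1980 bp in hypertrophic and 1995 bp in quiescent cells and had a height of 83 in both. The narrowest, on chromosome 11 from 36857360 to 36857509, spanned 150 bp in hypertrophic and 126 bp in quiescent cells, with heights of 36 and 31.

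The share of strong pairs that were such sites moved with height. Of pairs with a mean height from 10 to under 30, 32.5% were among them (234 of 721). The share was 39.0% from 30 to under 60 (987 of 2532), 54.7% from 60 to under 90 (756 of 1383), 74.2% from 90 to under 120 (557 of 751) and 92.2% from 120 upwards (554 of 601), against 51.6% of all strong pairs. The median log2 height ratio of all pairs was 0.09, 0.18, 0.17, 0.14 and 0.06 in these 5 classes from low to high, so it was lowest at both ends. By the smaller score of a pair the share was 45.8% from 400 to under 600 and 71.9% from 1600 to under 3100, and within a class of height it moved less. From 30 to under 60 in height these were 36.2% and 52.0%. From 60 to under 90, the shares were 52.5% and 68.5%, and from 120 upwards 92.4% and 93.1%. There was no rise from 90 to under 120, at 78.6% and 77.8%, with 66.7% for scores from 600 to under 1000. Below 30 in height, only 1 pair was in the top score class. No height exceeds 164 in either list, so a pair with both heights at 140 or more could not lie above the window. Of such pairs, 207 were among the sites, 0 were taller in hypertrophic and 6 taller in quiescent cells. How much this limit raised the share from 120 upwards was not tested.

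The spread of the height ratio narrowed with height, as it also would from read counting alone. If heights are unscaled read numbers, the counting standard error of a log2 ratio follows from the heights, and the interquartile range it would give can be set beside the observed one. From 10 to under 30 the observed range was 0.64 against 0.56 from counting, and from 30 to under 60 it was 0.54 against 0.43. From 60 to under 90 it was 0.35 against 0.33, and from 90 to under 120 it was 0.25 against 0.27. From 120 upwards the observed range of 0.105 was narrower than the 0.24 from counting. The scaling of heights is not stated, and the part of the upper limit of 164 in the narrow spread of tall pairs was not tested.

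**Figure D2:**
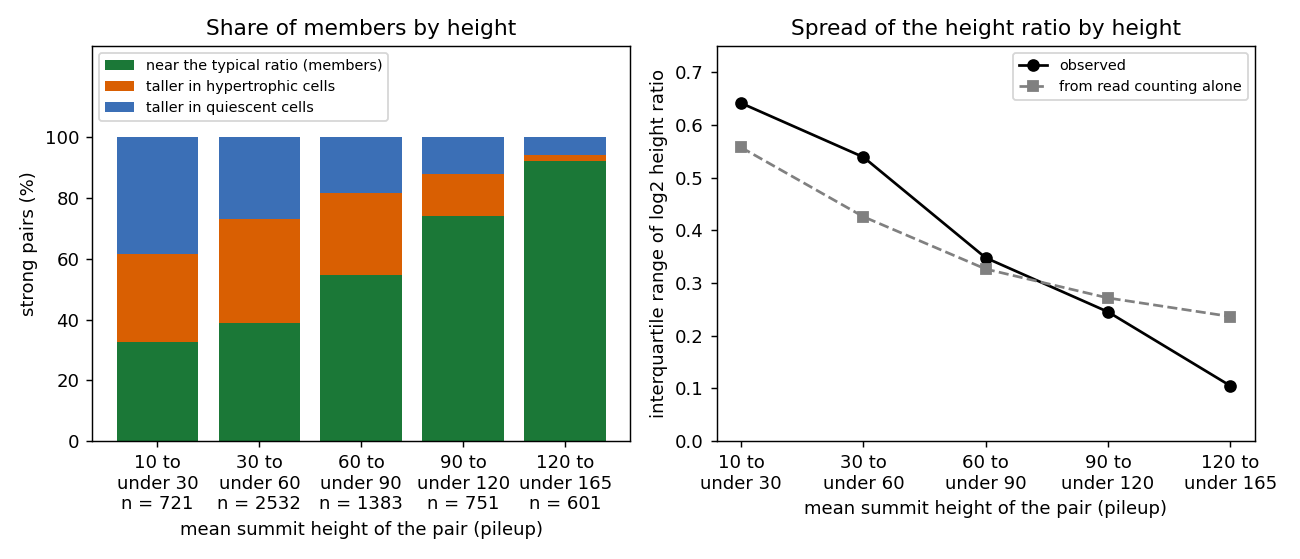
Left, the share of strong pairs in each class of mean summit height (pileup) that were sites near the typical ratio, taller in hypertrophic or taller in quiescent cells. Right, the interquartile range of the log2 height ratio in the same classes, as observed and as read counting alone would give it, which cross between 60 and 120.

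Under the same assumption, the median counting standard error of the log2 height ratio was 0.24 among the 3088 sites, which is wider than the window of 0.2 either side. The smallest standard error of any strong pair was 0.16, a 95% half-width of 0.31, so the rule itself placed the median ratio inside the counting interval of each site. Among the 2900 other strong pairs, 2296 (79.2%) had a counting interval that held the median ratio. Outside it lay 282 pairs that were taller and 322 that were lower in the hypertrophic list. From 90 upwards the observed spread was narrower than counting alone would give, so these intervals may be too wide there.

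The summits of the 3088 sites lay almost on top of each other. The median distance between the hypertrophic and the quiescent summit was 7 bp (quartiles 2 and 21 bp), where the rule allowed up to 100 bp. At 223 sites (7.22%) the summits were at the same base, at 1828 (59.2%, Wilson 95% interval 57.5 to 60.9%) they were at most 10 bp apart and at 2851 (92.3%) at most 50 bp. Among the strong pairs outside the window the share within 10 bp was 50.7% (interval 48.2 to 53.2%) for those taller in hypertrophic cells and 49.3% (46.7 to 52.0%) for those taller in quiescent cells. The intervals cover counting error only, treat sites as independent and all come from the same 2 lists, so they do not test this difference. Height moved with this difference: summits lay a median of 19 bp apart at sites with a mean height under 30 and 4 bp apart from 120 upwards. Within classes of height the difference was small and not all one way. The median separation was 19 bp for the sites and 23 bp for other pairs from 10 to under 30, 9 and 11 bp from 30 to under 60, and 6 and 7 bp from 60 to under 90. From 90 to under 120 the sites were the farther apart, at 5 against 3 bp, and from 120 upwards the values were 4 and 5 bp. The signed offset had a median of 0 bp, so neither list's summits were displaced along the chromosome.

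**Figure D3:**
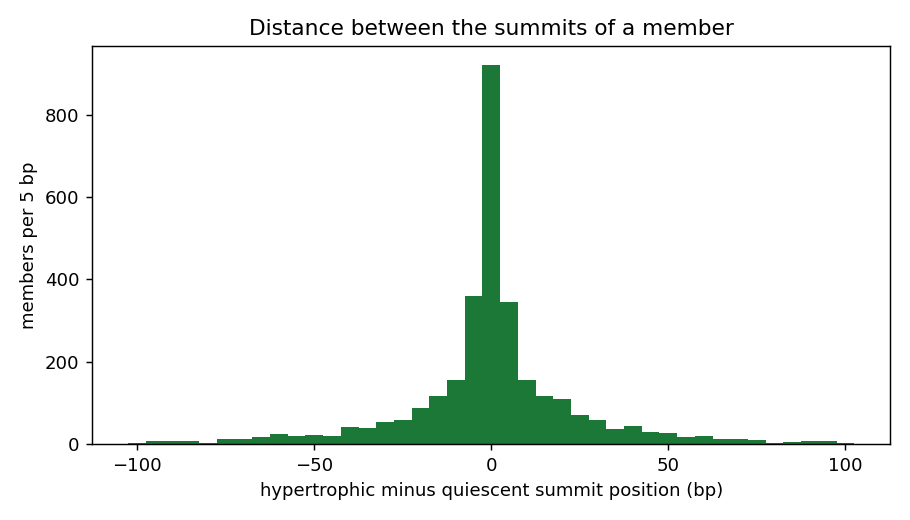
Number of sites per 5 bp of offset between the hypertrophic and the quiescent summit (hypertrophic minus quiescent position, bp) for the 3088 sites. The counts are highest at 0 bp and fall away on both sides, with 92.3% of sites within 50 bp.

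Peak outlines matched less exactly than summits. The median width was 719.5 bp in hypertrophic and 728.5 bp in quiescent cells, and 94.7% of sites had widths within 1.5-fold of each other. This share was 93.1% for strong pairs taller in hypertrophic and 91.5% for those taller in quiescent cells. The overlap of the peaks covered a median of 89.9% of their joined span, with quartiles of 81.8 and 95.2%, against a median of 88.6% over all strong pairs. Starts differed by a median of 28 bp and ends by 30 bp, and at 8 sites both were identical. Over all strong pairs the medians were 29 and 32 bp, so such close outlines are not particular to the sites. Taller sites were wider: sites with a mean height under 30 had medians of 556 bp in hypertrophic and 557.5 bp in quiescent cells, and those from 120 upwards 1025.5 and 1019.5 bp. The 3088 sites were wider than the strong pairs outside the window, with a median mean width of 728 bp against 585.5 bp for pairs taller in hypertrophic and 632.5 bp for pairs taller in quiescent cells. Within classes of height this did not hold throughout. From 10 to under 30 the sites were the narrower, at 564 against 636 bp for other pairs. The values were 587.5 and 574 bp from 30 to under 60, 718 and 634 bp from 60 to under 90, 889.5 and 832 bp from 90 to under 120, and 1028 and 1014.5 bp from 120 upwards. The summit lay a median of 0.50 of the way along the peak in hypertrophic and 0.49 in quiescent cells, and 95.2% of sites held exactly 1 peak of each list in their joined span.

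The rule held both scores of a site within 400 to under 3100, and so limited the score ratio less tightly than the height ratio. The median score was 804 in the hypertrophic list, with quartiles of 564 and 1212, against 833 in the quiescent list, with quartiles of 592 and 1286. The log2 ratio of hypertrophic over quiescent score had a median of -0.06 and quartiles of -0.27 and 0.15. At 90.3% of sites the scores were within 1.5-fold of each other, at 92 (2.98%) the hypertrophic and at 208 (6.74%) the quiescent score was higher by more than that. Among the strong pairs taller in hypertrophic cells the scores were within 1.5-fold at 62.6%, and among those taller in quiescent cells at 41.7%. Whether the score scales of the lists are comparable was not tested, and scores come from the same comparison that chose the sites.

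At equal pileup, which lies below the typical ratio of 1.10-fold, the quiescent list gave the higher score more often. At the 181 sites of equal height the median score was 704 in hypertrophic and 880 in quiescent cells, a log2 ratio of -0.28, and the quiescent score was the higher at 158 of them. The same held when heights differed by at most 2, where the quiescent score was the higher at 672 of 823 sites. At the 295 sites with the taller quiescent summit the median log2 score ratio was -0.30, and the quiescent score was the higher at 254. At the 2612 sites with the taller hypertrophic summit the scores were nearly balanced, with the hypertrophic score higher at 1268 and the quiescent at 1344. Both lists were called against IgG libraries of hypertrophic cells, and read totals were not used here, so how control and depth enter the scores was not tested.

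The balance of scores moved with height. The median log2 score ratio was -0.04 for sites with a mean height under 30, -0.03 from 30 to under 60, -0.03 from 60 to under 90 and -0.05 from 90 to under 120. From 120 upwards it was -0.19, and the hypertrophic score was the higher at 31.6% of these 554 sites, against 43.1% of all 3088. The median log2 height ratio of the sites also moved, from 0.14 in each lower class to 0.06 from 120 upwards. Across the 3088 sites, Spearman's rho between the log2 height ratio and the log2 score ratio was 0.51. How much of the lower score ratio goes with the lower height ratio was not tested. Height and score were only loosely tied across the 3088 sites, whose scores the rule limits. Spearman's rho was 0.25 in hypertrophic and 0.31 in quiescent cells, as a description across sites that share their libraries. Under the same score limits it was 0.48 and 0.40 for strong pairs taller in hypertrophic cells. For those taller in quiescent cells it was 0.48 and 0.38. The median hypertrophic score was 531 below a height of 30 and 942 from 90 to under 120, but 856 from 120 upwards, and the quiescent medians were 556, 969 and 956.

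**Figure D4:**
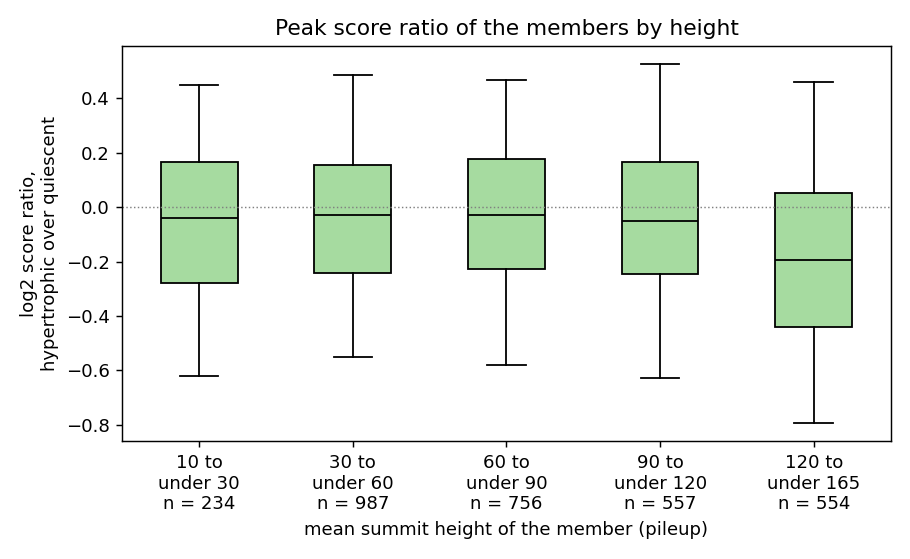
Log2 ratio of hypertrophic over quiescent peak score for the 3088 sites, by class of mean summit height (pileup). Boxes give the quartiles with the median, whiskers the 5th and 95th percentiles; the medians lie between -0.05 and -0.03 below a height of 120 and at -0.19 above it.

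The share of strong pairs near the typical ratio ran from 45.5% on chromosome 15 (81 of 178 pairs) to 58.6% on chromosome 10 (201 of 343), with 58.2% on chromosome 18 (124 of 213). The highest and lowest of 21 chromosomes were picked for their shares, which the height rule sets, so these are descriptions beside the 51.6% of all strong pairs. The median of the mean heights of the strong pairs was 60 on chromosome 10, 59 on chromosome 18 and 55.8 on chromosome 15, against 56 over all. The median log2 height ratio of strong pairs ran from 0.11 on chromosome 17 to 0.18 on chromosome 15, so on all 21 chromosomes the typical strong site had the taller pileup in the hypertrophic list. Relative to all hypertrophic peaks, the sites were densest on chromosome 12, with 58.5 per 1000 peaks, and sparsest on chromosome X, with 37.7 per 1000.

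Most of the sites stood alone. The median distance to the nearest other site was 125 kb, and 2745 of the 3088 (88.9%) had no other within 10000 bp. The remaining 343 formed 163 runs, of which 149 held 2 sites. Strong pairs as a whole were also sparse. Of all 5988, 146 had another strong pair within 1000 bp and 1004 had the nearest from 1000 to 10000 bp away. The sites are a part of these pairs, so standing alone is not particular to them. The longest run, on chromosome 11, held 5 sites between 72613669 and 72620860. In order along the chromosome their hypertrophic heights were 44, 84, 102, 59 and 54 and their quiescent heights 42, 69, 92, 53 and 55. The quiescent score was the higher at all 5, although the hypertrophic summit was the taller at 4, with log2 score ratios of -0.81, -0.19, -0.44, -0.14 and -0.39. The next peak of the same list, of any score, lay a median of 3271 bp away in hypertrophic and 3508 bp in quiescent cells.

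Strong pairs close together along the genome had height ratios more alike than those of distant pairs. Where the nearest other strong pair lay within 1000 bp, 63.8% of pairs with a neighbour near the typical ratio were near it themselves (44 of 69), against 33.8% with any other neighbour (26 of 77). From 1000 to 10000 bp the shares were 55.1% and 47.0%, from 10000 to 100000 bp 56.3% and 48.1%, and farther away 51.9% and 50.3%. As a description, Pearson's r between the log2 ratios of a pair and its nearest neighbour was 0.51 within 1000 bp (146 pairs), 0.24 up to 10000 bp (1004 pairs), 0.17 up to 100000 bp (2592 pairs) and 0.01 beyond (2246 pairs). Mutual neighbours enter both ways, and all pairs share the same 2 lists. Heights differ between the sites and other pairs, so the same values were taken at low height: among neighbours with both mean heights under 60, the shares within 1000 bp were 38.5% (10 of 26) and 32.7% (17 of 52), and r was 0.47. With both mean heights at 60 or more they were 18 of 20 and 2 of 10 pairs, and r was 0.78 over 30 pairs. From near to far, the shares differed by 5.8, 7.2, 5.3 and 1.1 points at low height. With both heights at 60 or more they differed by 70.0, 8.3, 9.5 and 8.7 points. From 1000 bp outwards this difference thus did not fall with distance at tall pairs. Beyond 100000 bp, r was 0.003 at low height and 0.05 with both heights at 60 or more. A long stretch of consecutive strong pairs on chromosome 1 was all taller in quiescent cells. Some of its values repeated exactly, such as heights of 43 in hypertrophic and 66 in quiescent cells. How much this stretch weighs in the shares and r, and whether neighbours lie in the same transcript, was not tested.

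**Figure D5:**
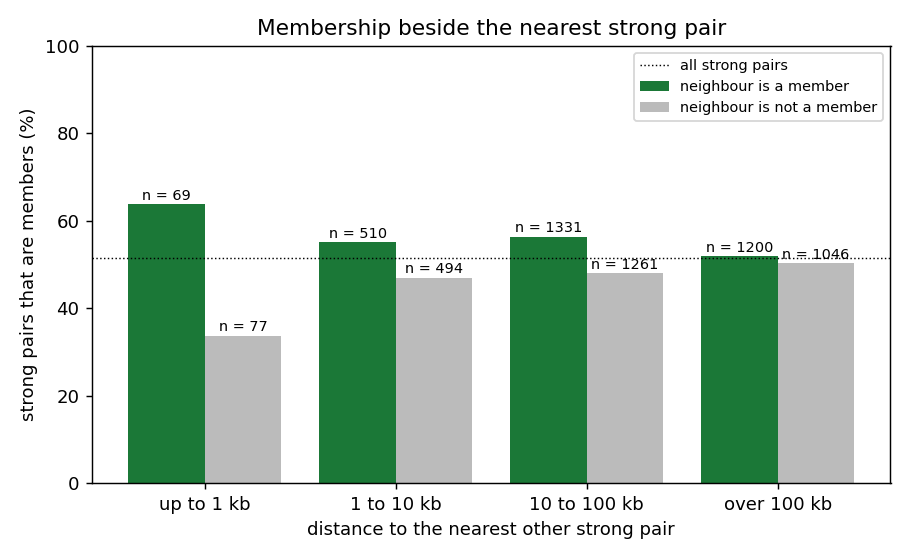
Share of strong pairs near the typical height ratio (vertical, %) by distance to the nearest other strong pair, with that neighbour near the ratio (green) or not (grey). The dotted line is the 51.6% of all strong pairs; the bars stand at 63.8% and 33.8% up to 1000 bp and at 51.9% and 50.3% beyond 100000 bp.

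Outside the score limits the typical height was also greater in the hypertrophic list, whose depth and scaling relative to the quiescent list are unknown. Pairs in which both scores were from 50 to under 100 had a median log2 height ratio of 0.21 (6854 pairs, median heights 12 in hypertrophic and 10 in quiescent cells). Pairs from 100 to under 400 had 0.18 (13929 pairs, heights 24 and 20), and pairs at 3100 or more had 0.10 (288 pairs, heights 113 and 102.5). The share within the same window was 49.3%, 43.3% and 77.8% in these classes, against 51.6% of the strong pairs. Over all 42738 pairs with summits within 100 bp it was 38.0%. Each class holds only pairs with both scores in the same range, which the pairs as a whole need not have. Low heights take few whole values, so the ratio moves in coarse steps there and these shares are not directly comparable.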

How the data were processed

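The submitters' processing notes list CASAVA 1.8, TopHat and MACS 1.4 as tools and rn4 as genome build, with no settings. The deposited files are a peak list and a summit list for each condition, against the negative control per their names. No source used here says if the 2 m6A IP libraries of a condition were pooled. A deposited peak score is the caller's own value, at least 50 in both lists. The deposited summit signal is a pileup height in whole numbers, scaling not stated. Read depth and input libraries were not used here.

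Pairs, ratios and shares were computed with Python 3.11.15, numpy 2.4.6, pandas 2.3.3 and scipy 1.17.1, and plotted with matplotlib 3.10.9. Coordinates count from 1. Ties for the nearest summit went to the higher score. Wilson 95% intervals, which treat sites as independent, are given for the shares with summits at most 10 bp apart. The pairing was tested on simulated lists. No test was run, since each condition has 1 list. The members and their rule, and the named sites (highest smaller score overall and per chromosome, extremes of height and width, longest run, edges of the window), were chosen with earlier results of these data known. Classes of height, the counting error and the neighbour comparison were chosen after seeing the data, and 10 other settings were tried.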

Additional observations from a re-analysis of the deposited data

How the results depend on the processing

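No paired analysis was possible because each condition has 1 list and the lists carry no replicate numbers. Of 10 other settings, 7 kept the number of sites within 1.5 times of 3088 (2155 to 3957). It was 1369 where scores had to reach 800, 5943 where 200 sufficed and 1752 with a window of 0.1. The median log2 height ratio of strong pairs, 0.13, was 0.15 with widths of at most 1000 bp (0.152) and without heights of 140 or more (0.148). The median log2 score ratio of the sites, -0.06, was -0.18 with the window centred on equal heights, -0.038 with a window of 0.1, -0.033 with widths of at most 1000 bp and -0.028 without heights of 140 or more. The share of sites with summits at most 10 bp apart, 59.2%, was 64.1% with summits at most 50 bp apart and 57.4% with widths of at most 1000 bp. The limit of 50 bp drops pairs with more distant summits, so it raises this share by construction. The cause of the other shifts was not tested. Both log2 medians kept their sign under the 10 settings. The median height ratio of strong pairs could not move with the window or its centre, since it is taken before the window. It could not move with mutual pairing either, since all strong pairs were already mutually nearest. Depth is unknown beyond the summit height. If heights are unscaled read numbers, the median counting standard error of 0.24 exceeds the window of 0.2, though pairs of height 90 and above spread less than counting alone would give.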

Other observations

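At a few sites the scores lay far apart although the heights were within the window. The sites named here were chosen after their values were seen. The score differed more than 2-fold at 35 sites, with the quiescent score higher at 30 and the hypertrophic at 5. On chromosome 8 from 124316052 to 124316590 both heights were 116, while the score was 924 in hypertrophic and 2833 in quiescent cells, and the peak spanned 539 bp in hypertrophic and 1125 bp in quiescent cells. On chromosome 18 from 46531366 to 46532816, with summits at the same base and heights of 134 and 129, the scores were 582 in hypertrophic and 1775 in quiescent cells. In the opposite direction, the site on chromosome 10 from 84541788 to 84543465 scored 1227 in hypertrophic and 431 in quiescent cells, with heights of 149 and 122 and widths of 1678 and 600 bp. On chromosome 17 from 57243762 to 57245540, a site with its summit at the same base in both lists scored 1714 in hypertrophic and 827 in quiescent cells, with heights of 158 and 147.

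Height and summit base were both identical at 10 sites on 7 chromosomes, with heights from 27 to 145. The one with the highest smaller score lay on chromosome 5 from 153598708 to 153599412, with a height of 145 in both lists and scores of 1465 in hypertrophic and 1860 in quiescent cells.

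Sites were most crowded on chromosome 18 between 30000001 and 31000000, where 19 of 27 strong pairs (70.4%) were near the typical ratio. The next window, on chromosome 8 between 121000001 and 122000000, held 12 of 19 (63.2%). On chromosome 11 between 85000001 and 86000000 all 7 strong pairs were near it. These windows were picked for their counts, and the share over all strong pairs was 51.6%.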
